A study of Homo sapiens with 12 samples.

Results

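Transcript levels in HEK 293T cells kept in 1 µM PDP for 72 h were set against those in cells kept in 1 µM PDP for 24 h. HEK 293T is an established line derived from human embryonic kidney, with a viral large T antigen; PDP is a small molecule known here only by its code name. A gene was included when its level, in fragments per kilobase of transcript and sequencing depth (FPKM), was at least 1 at either time, which held for 14924 of 58083 gene IDs. The ratio is the level at 72 h over the level at 24 h on the log2 scale, and no control enters it gene by gene. Of the included genes, 14749 had a ratio, because 101 were listed at 0 at 24 h and 74 at 72 h. Just inside the inclusion limit lay DUSP5P1 with FPKM 0.323 at 24 h and 1.00 at 72 h, and just outside it CTC-429L19.3 with 0.775 and 0.99997.

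The study mapped G-quadruplexes in genomic DNA with a small-molecule pull-down and sequenced poly(A) RNA from a stranded kit after PDP exposure. The groups used were PDP for 24 h and PDP for 72 h, with 2 samples each, and DMSO for 3 h and PDP for 3 h, with 2 samples each, gave levels beside them. All groups were the same line, with no further allele or agent named in the labels. No DMSO sample of 24 h or 72 h was used here, so length of exposure and length of culture cannot be told apart. The deposited tables hold 1 value per gene and condition, pooled over the samples of that condition, so there is no spread between replicates, no test and no p-value for 72 h against 24 h, and depth per library is unknown. "Higher" and "lower" below mean at least 2-fold, as a description of these pooled values. The standard error printed beside a ratio was implied by the authors' own fold changes and test statistics against the control at the 2 times; it counts the control's spread at both times and so overstates the error of the ratio, and its median over 14221 genes was 0.55 on the log2 scale.

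G-quadruplexes are folds of DNA or RNA in which stacked guanines pair with each other, and they occur in many promoters and transcripts. Small molecules that bind them can alter transcription, replication and RNA processing. Several of the programmes described below are standard stress responses of cultured cells: hypoxia-inducible factor (HIF) raises glycolytic and angiogenic genes when prolyl hydroxylases are inactive, heat shock factor and the unfolded protein response raise chaperones, and immediate early genes such as FOS answer growth and stress signals without new protein synthesis.

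At least 2-fold higher at 72 h were 1195 genes (8.1% of the 14749), and at least 2-fold lower were 1012 (6.86%). The median log2 ratio of all genes was 0.12, with quartiles of -0.28 and 0.48, and 5th and 95th percentiles of -1.18 and 1.32. The balance of both directions depends on how the times are scaled to each other. Higher genes made up 54.1% of all calls as scaled here, 45.0% with the values as deposited, 43.7% with the median of all genes set to 0, and 24.4% with the summed FPKM of nuclear genes made equal, a scaling that moved the median of all genes by -0.37. The summed FPKM of nuclear protein-coding genes was 480403 at 24 h and 625567 at 72 h. Gene lists are therefore described by their median relative to the median of all genes.

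The direction of change went with transcript abundance. Among the 1004 genes with FPKM of at least 100 at the higher of both times, 94 (9.36%) were higher and 11 (1.10%) were lower, and their median ratio was 0.43. Among the 1627 genes with FPKM of 1 to 2, 17.0% were higher and 20.7% were lower, with a median of -0.12. In this class a 2-fold call puts the other time under FPKM 1. Each gene so called thus passed the minimum at a single time, which fixed its direction. Few genes of middle abundance passed the fold: 4.28% were higher and 2.73% lower at FPKM 10 to 30. Protein-coding genes split nearly evenly, with 591 higher and 626 lower of 12297. Of 742 long noncoding RNA genes, 157 (21.2%) were higher and 78 (10.5%) lower. Neither these shares nor those of pseudogenes were matched for level. Over all genes at FPKM 2 to 5, 14.1% were higher and 14.5% lower. Members of these kinds that passed the minimum at a single time were not counted apart. Of 68 ribosomal protein pseudogenes, 8 were higher and 35 (51.5%) lower; reads of such copies cannot be told with certainty from those of the parent gene.

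**Figure D1:**
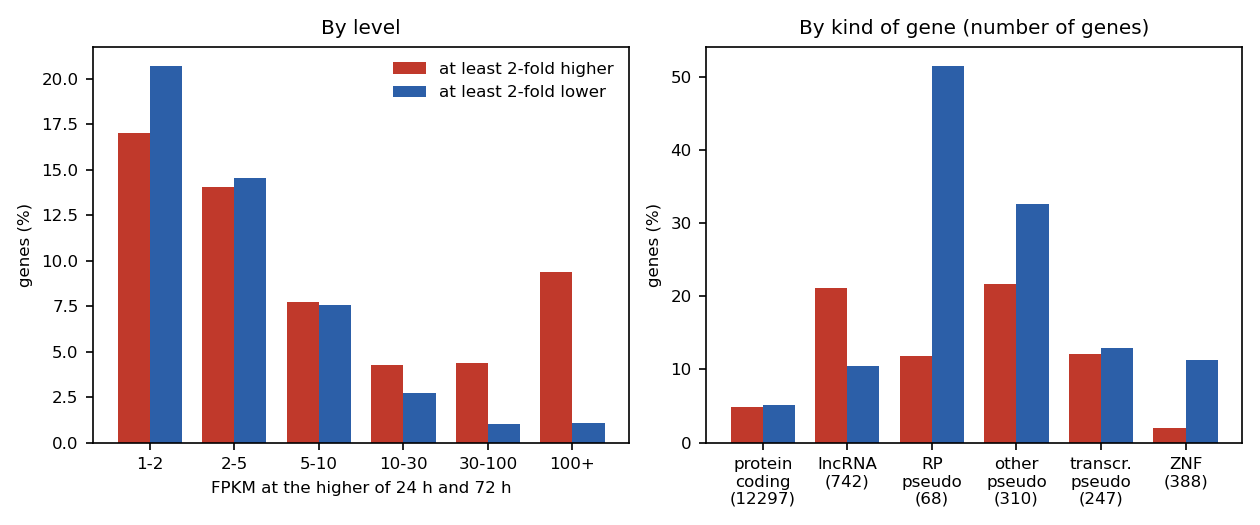
Share of genes at least 2-fold higher (red) or lower (blue) at 72 h than at 24 h of PDP, in percent of the genes in each class, by FPKM at the higher time (left) and by kind of gene with the number of genes in brackets (right; RP, ribosomal protein; pseudo, pseudogene; transcr., transcribed). Among genes of FPKM 100 or more 9.36% were higher and 1.10% lower, and 51.5% of ribosomal protein pseudogenes were lower.

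**Figure D2:**
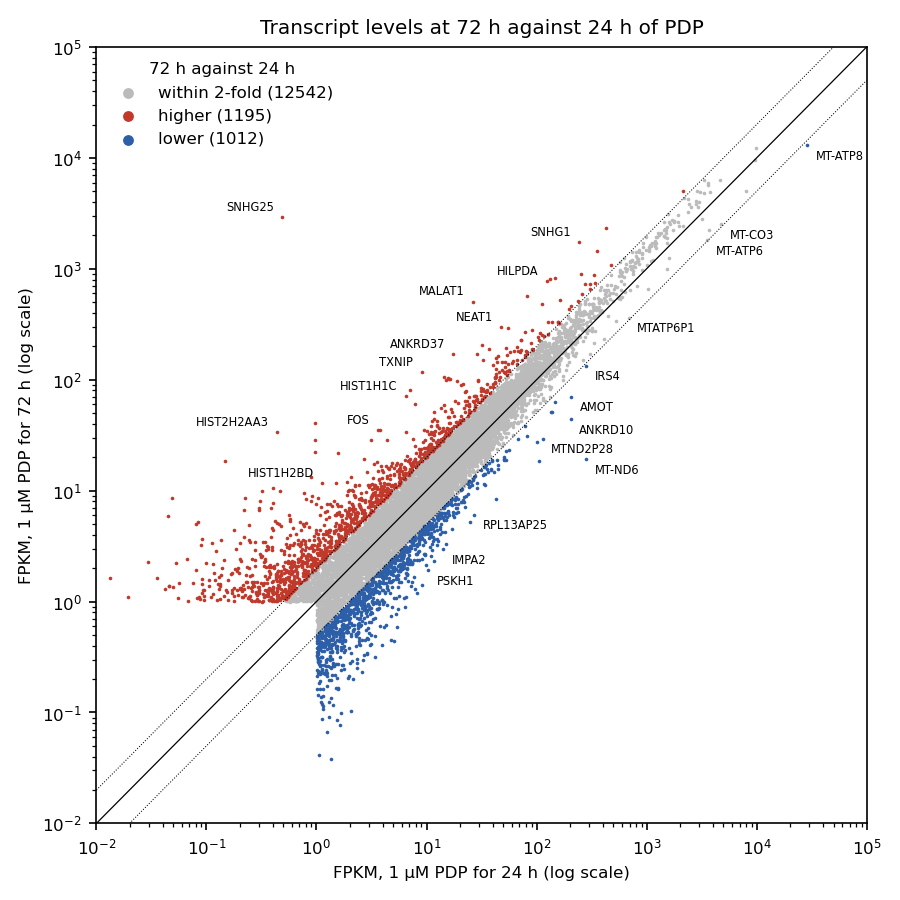
FPKM of each gene after 24 h (horizontal, log scale) and 72 h (vertical, log scale) of PDP, 1 pooled value per gene and time; the solid line marks equal levels and the dotted lines 2-fold. A selection of the named genes is labelled, with MALAT1, TXNIP and ANKRD37 above the lines and MT-ND6, ANKRD10 and PSKH1 below them.

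Core promoters of some of the genes with the largest ratios are printed first, because the share of promoters with the letters TATAAA differed between higher genes and all genes. The sequences are from RefSeq (GRCh38.p14), 250 bases up to the base before the listed start, 5′ to 3′ on the gene's strand, all on the plus strand. Capitals mark TATAAA and the core of HIF binding sites, ACGTG or GCGTG, on either strand. Genes for printing had a single listed start and FPKM of at least 10 at the higher time. Their ratio was at least 2 implied standard errors. Genes of a chromosome kept out of the printing were removed before ranking, so the ranks do not cover every chromosome. Of the genes left, the set holds the 4 with the largest increase that carry TATAAA before the start. It also holds the HIF target with the largest increase and the 2 protein-coding genes with the largest decrease. Several clustered histone genes with larger ratios carry TATAAA as well but lie outside these limits.
FOS, chr14:75278578-75278827: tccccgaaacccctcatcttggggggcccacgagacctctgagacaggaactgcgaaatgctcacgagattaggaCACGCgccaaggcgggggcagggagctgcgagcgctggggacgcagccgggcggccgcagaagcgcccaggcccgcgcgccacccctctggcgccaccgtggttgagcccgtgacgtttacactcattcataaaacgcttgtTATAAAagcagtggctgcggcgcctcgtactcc
PPP1R15A, chr19:48872171-48872420: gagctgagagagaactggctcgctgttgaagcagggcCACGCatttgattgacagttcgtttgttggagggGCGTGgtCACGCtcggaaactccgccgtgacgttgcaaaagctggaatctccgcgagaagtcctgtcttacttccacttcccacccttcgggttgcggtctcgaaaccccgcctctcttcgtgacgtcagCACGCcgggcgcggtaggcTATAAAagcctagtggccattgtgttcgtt
ADM, chr11:10304823-10305072: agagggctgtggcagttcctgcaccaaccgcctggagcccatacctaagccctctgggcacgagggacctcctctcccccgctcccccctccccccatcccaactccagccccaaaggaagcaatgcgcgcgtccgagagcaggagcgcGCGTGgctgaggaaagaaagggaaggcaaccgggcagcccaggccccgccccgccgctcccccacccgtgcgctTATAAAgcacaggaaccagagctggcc
GADD45B, chr19:2475877-2476126: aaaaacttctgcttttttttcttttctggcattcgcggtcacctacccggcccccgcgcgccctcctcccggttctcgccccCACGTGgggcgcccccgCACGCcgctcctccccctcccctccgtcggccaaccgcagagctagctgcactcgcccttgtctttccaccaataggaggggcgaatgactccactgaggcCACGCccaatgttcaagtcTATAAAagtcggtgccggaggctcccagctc
ANKRD37, chr4:185396591-185396840: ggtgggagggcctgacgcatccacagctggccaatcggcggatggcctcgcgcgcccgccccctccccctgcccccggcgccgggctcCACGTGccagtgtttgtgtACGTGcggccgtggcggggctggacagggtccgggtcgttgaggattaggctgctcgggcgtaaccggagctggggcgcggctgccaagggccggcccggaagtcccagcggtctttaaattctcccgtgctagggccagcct
PSKH1, chr16:67893004-67893253: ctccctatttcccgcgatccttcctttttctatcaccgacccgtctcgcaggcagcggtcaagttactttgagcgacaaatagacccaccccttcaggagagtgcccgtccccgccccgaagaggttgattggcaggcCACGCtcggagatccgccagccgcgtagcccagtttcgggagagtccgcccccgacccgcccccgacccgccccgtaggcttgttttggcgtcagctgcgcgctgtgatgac
FADD, chr11:70203046-70203295: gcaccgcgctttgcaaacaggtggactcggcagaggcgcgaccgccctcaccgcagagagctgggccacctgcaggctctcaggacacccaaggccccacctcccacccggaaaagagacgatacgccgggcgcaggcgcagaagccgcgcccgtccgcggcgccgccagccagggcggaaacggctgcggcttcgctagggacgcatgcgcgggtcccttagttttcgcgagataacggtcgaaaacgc

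TATAAA begins at position -33 from the start in FOS, -30 in PPP1R15A, -27 in ADM and -31 in GADD45B, and the windows of ANKRD37, PSKH1 and FADD do not hold these letters. Over 7596 measured genes with a single listed start, searched on both strands from 250 bases before to 50 after the start, TATAAA was in 60 of 443 promoters of higher genes (13.5%), in 22 of 403 of lower genes (5.46%) and in 382 of all 7596 (5.03%). Among genes with FPKM of at least 10 the shares were 14.7%, 2.50% and 4.41%. Without the clustered histone genes, whose promoters hold TATAAA in 8 of 13, the share among higher genes was 12.1%. Of all 22114 promoters in the table, measured or not, 12.7% hold it. Read the other way, 60 of the 382 genes with TATAAA were higher and 22 lower, against 383 and 381 of the 7214 without.

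A run of 4 GGG blocks spaced by 1 to 7 bases, the pattern of a potential G-quadruplex, was in 36.3% of promoters of higher genes, 35.7% of lower genes and 35.2% of all. ACGTG or GCGTG was in 61.4%, 61.0% and 65.6%, and among genes with FPKM of at least 10 in 71.4%, 58.8% and 68.5%, so that higher genes lay below the share of all genes in the first case and above it in the second. CACGTG, which contains ACGTG, was in 10.2%, 7.94% and 10.5%, and CCAAT in 39.5%, 39.5% and 38.2%. TGANTCA, the AP-1 site, was in 5.64%, 4.96% and 3.67%; GAANNTTC, a heat shock element core, was in 5.87%, 4.71% and 4.21%. A match is a string of letters and not a site shown to be bound.

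Pull-down peaks, another readout of the series made on annealed genomic DNA without PDP treatment of cells, were counted by their centre in each gene's locus. Among loci of 10 to 100 kb a peak lay in 53.9% of higher, 52.9% of lower and 52.8% of other genes. Among loci over 100 kb the shares were 91.5%, 93.3% and 92.6%. Among loci under 10 kb they were 4.55% (12 of 264), 8.49% (18 of 212) and 9.68% (135 of 1394).

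HIF target genes outside glycolysis were 19 of 27 higher and none lower, and all 27 lay above the median of all genes; 3 more members were under FPKM 1 at both times. Their median log2 ratio was 1.12, which is 0.99 above that of all genes. ANKRD37, an ankyrin repeat protein and standard hypoxia marker, had FPKM 3.10 in DMSO, 2.48 at 3 h, 17.4 at 24 h and 171 at 72 h (ratio 3.30, SE 0.97). It was thus already above DMSO at 24 h and went on to 72 h. ADM, the vasodilator peptide adrenomedullin, was 15.6, 16.0, 14.4 and 107 in the same order (2.89, SE 0.35), so its step lay between 24 h and 72 h. HILPDA, a lipid droplet protein, was 25.5, 24.3, 123 and 772 (2.65, SE 0.58). VEGFA, the angiogenic growth factor, stood at 44.0 at 24 h and 146 at 72 h (1.73, SE 0.54), and DDIT4, an inhibitor of mTORC signalling, at 257 and 596 (1.21, SE 0.30). The mitophagy receptors BNIP3 and BNIP3L had 67.3 and 181, and 27.6 and 57.2. The collagen prolyl hydroxylase P4HA1 had 42.7 and 125. The lowest ratios of the list were 0.50 for the demethylase KDM4B and 0.54 for MXI1, a MAX partner. HIF1A, the oxygen-regulated subunit itself, was 57.3 at 24 h and 55.9 at 72 h, a ratio of -0.03. The HIF core letters were in 13 of the 17 list promoters with a single start (76.5%, against 65.6% of all measured genes), and also in 9 of 11 of the immediate early factors and 12 of 14 of the cholesterol synthesis genes.

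Glycolysis and glucose entry genes were 7 of 21 higher, none lower, with a median of 0.85 (0.73 above all genes). Of the 21, 1 passed the FPKM minimum at 72 h alone and so had to lie above its 24 h level. SLC2A3, a glucose transporter, had FPKM 1.49 at 24 h and 11.8 at 72 h (2.98, SE 1.46), and SLC2A1, another and more abundant transporter, 35.8 and 79.5. ENO2, the neuronal enolase, was 28.7 and 171 (2.57, SE 1.76), whereas the abundant isoenzyme ENO1 was 1439 and 1968 (0.45). PDK1, which inhibits pyruvate dehydrogenase, was 17.1 and 51.0 (1.58, SE 0.64). The most abundant member, GAPDH, was 1859 in DMSO, 1833 at 3 h, 2135 at 24 h and 4979 at 72 h (1.22, SE 0.30). LDHA, which makes lactate, was 1450 and 2621 (0.85, SE 0.28). The phosphofructokinase genes were the members nearest to no change: PFKM 0.27, PFKP 0.04 and PFKL -0.08 on the log2 ratio scale.

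TXNIP, a glucose-responsive arrestin that binds thioredoxin and limits glucose uptake, had the third largest increase by the naming rule. It was at 6.43 in DMSO, 7.54 at 3 h, 9.02 at 24 h and 118 at 72 h (3.71, SE 0.36), a 13.1-fold step from 24 h. Its relative ARRDC3 was 4.07 and 11.8 (1.54, SE 0.87), and ARRDC4, another glucose-responsive member, 17.8 and 25 (0.49). The sugar-sensing transcription factors did not share a direction: MLXIP was 19.7 and 36.5 (0.89) and MLXIPL 14.7 and 9.74 (-0.60).

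Immediate early transcription factors were 11 of 18 higher and none lower (median 1.07, 0.95 above all genes), with 4 further members under FPKM 1. FOS, a subunit of AP-1, was 1.09 in DMSO, 1.14 at 3 h, 3.64 at 24 h and 35.0 at 72 h (3.26, SE 1.49). JUNB, its partner, was 8.55, 8.60, 16.4 and 101 (2.62, SE 1.03), JUN 79.3 at 24 h and 272 at 72 h (1.78, SE 0.28), and JUND 29.7 and 99.4. ATF3, a stress-induced repressor, was 37.3 and 188 (2.33, SE 0.32). IER3 was 5.13 in DMSO, 15.0 at 24 h and 100.4 at 72 h (2.74, SE 0.42). EGR1, another early gene, stayed low at 1.14 and 1.66. The member that went the other way was MYC, at 271 in DMSO, 273 at 3 h, 409 at 24 h and 235 at 72 h (-0.80, SE 0.31), under the 2-fold limit. Of 12 genes of the ERK feedback loop, 1 was higher (8.33%, against 8.1% of all genes): the phosphatase DUSP1, at 14.8 and 52.0 (1.82, SE 0.34). Sprouty gene SPRY2 was 10.2 and 12.2, and ETV4 1.26 and 1.91.

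**Figure D3:**
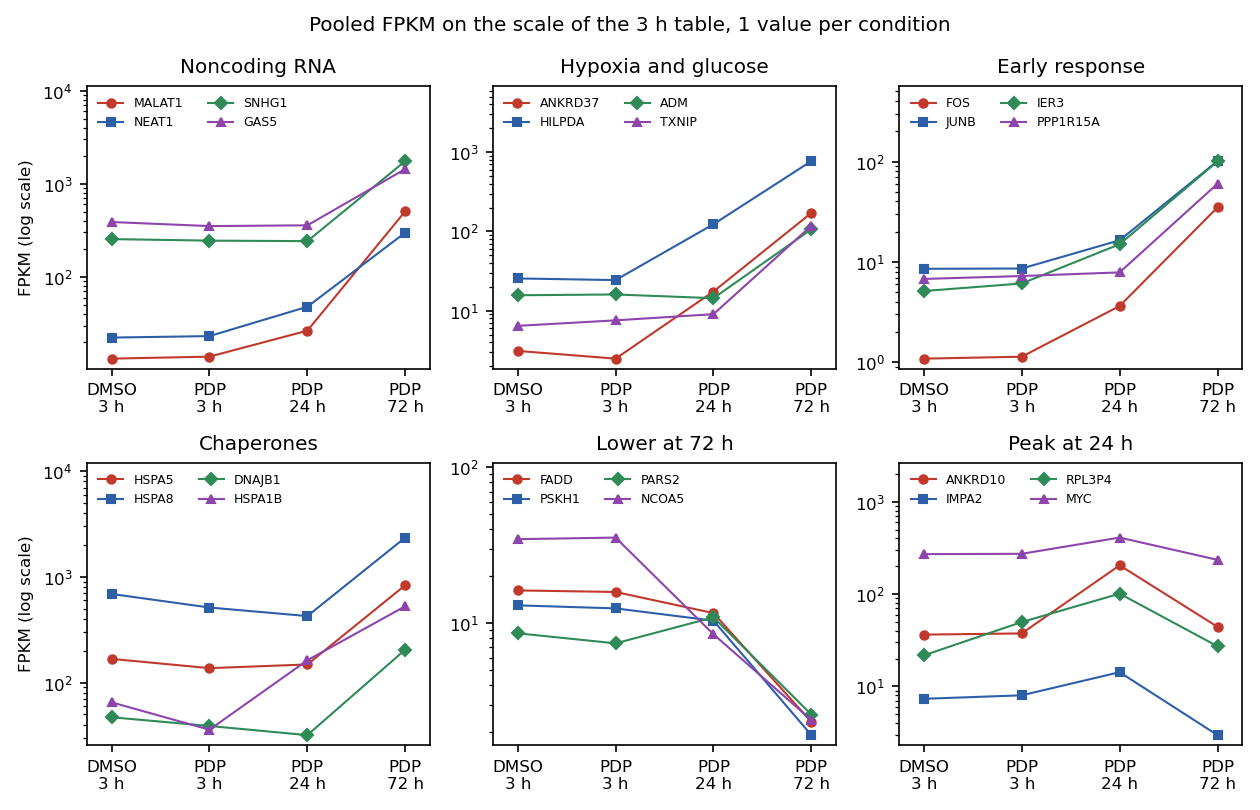
Pooled FPKM (log scale) of 24 genes in DMSO 3 h and in PDP at 3 h, 24 h and 72 h, all on the scale of the 3 h table, 1 value per condition with no error bar because no replicate values are held. HILPDA and ANKRD37 climb from 3 h to 24 h and again to 72 h, ADM, SNHG1 and GAS5 only between 24 h and 72 h, and ANKRD10, IMPA2, RPL3P4 and MYC have their highest value at 24 h.

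Of the cytosolic heat shock chaperones, 4 of 23 were higher (17.4%, against 8.1% of all genes) and none lower. Of the 23, 22 lay above the median of all genes (list median 0.52, 0.40 above it). DNAJB1, the inducible HSP40 co-chaperone, was 46.9 in DMSO, 38.8 at 3 h, 31.8 at 24 h and 205 at 72 h (2.69, SE 0.38). HSPA8, the constitutive HSP70, was 689, 513, 426 and 2354 (2.47, SE 0.39). Both therefore had their lowest value of the 4 conditions at 24 h. HSPA1B, an inducible HSP70, was 64.9, 35.8, 162 and 527 (1.70, SE 0.27), and its near-identical copy HSPA1A had 46.6 at 24 h and 59.2 at 72 h (0.35); the split of reads between these copies is uncertain. CRYAB, a small heat shock protein, was 0.08 and 1.93, too low for an implied error. It is counted among the 4 higher, but it passed the FPKM minimum at 72 h alone and so had to lie above its 24 h level. BAG3, a co-chaperone of the same response, was 15.4 and 17.5 (0.18), and HSP90AB1 620 and 729 (0.24). None of the 8 subunits of the CCT chaperonin, which folds actin and tubulin, passed 2-fold; their ratios ran from 0.22 to 0.81 and all lay above the median of all genes.

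Chaperones and stress genes of the endoplasmic reticulum were 5 of 23 higher (21.7%, against 8.1% of all genes) and 1 lower (4.35%, against 6.86%). Their median was 0.27 (0.14 above all genes), and -0.090 with equal nuclear FPKM sums (0.16 above all genes). HSPA5, the lumenal HSP70 also called BiP, was 167 in DMSO, 137 at 3 h, 148 at 24 h and 834 at 72 h (2.49, SE 0.27). HERPUD1, a component of the degradation machinery, was 59.6 and 140 (1.23, SE 0.45), CALR 239 and 512 (1.10), and HSP90B1 308 and 731 (1.25, SE 1.33). Other genes of the unfolded protein response did not go with them: XBP1 was 56.7 and 56.1 (-0.02), SDF2L1 35.3 and 32.4 (-0.12), PDIA4 99.5 and 80.8 (-0.30), CRELD2 32.9 and 22.6 (-0.54), and the mannosidase-like EDEM1 24.4 and 10.8 (-1.18, SE 1.33).

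The ATF4 and amino acid response list was 3 of 24 higher (12.5%, against 8.1% of all genes) and 2 lower (8.33%, against 6.86%). Its median was -0.25 (-0.38 relative to all genes). PPP1R15A, which directs dephosphorylation of eIF2 alpha, was 6.77 in DMSO, 7.24 at 3 h, 7.87 at 24 h and 60.1 at 72 h (2.93, SE 0.33). DDIT3, the transcription factor CHOP, was 7.52 and 29.0 (1.94, SE 1.56), and ATF5 was 23.3 in DMSO, 3.74 at 24 h and 11.8 at 72 h (1.65, SE 1.5). Several biosynthetic and transport members were below their 24 h level, and others above it. CBS, of cysteine synthesis, was 39.5 and 18.7 (-1.08, SE 0.37), CHAC1 3.60 and 1.73 (-1.06), the cystine transporter SLC7A11 6.26 and 3.47 (-0.85), and SESN2 19.9 and 12.3 (-0.69). ATF4 mRNA was 595 and 557 (-0.09, SE 0.27) and asparagine synthetase ASNS 91.3 and 111 (0.28). None of the 20 cytosolic aminoacyl-tRNA synthetases passed 2-fold in either direction.

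Of the nuclear noncoding RNAs, 4 of 10 were higher (40%, against 8.1% of all genes) and none lower. The list median was 0.55, 0.43 above all genes. With equal nuclear FPKM sums it was -0.0043, 0.24 above all genes, and at a minimum FPKM of 5 it was 0.35, 0.19 above. MALAT1 and NEAT1 had the largest ratios. MALAT1, a nuclear speckle RNA, was 13.2 in DMSO, 13.9 at 3 h, 26.4 at 24 h and 507 at 72 h (4.26, SE 0.59), a 19.2-fold step. NEAT1, the scaffold of paraspeckles, was 22.3, 23.1, 47.7 and 299 (2.65, SE 0.80). BCYRN1, a cytoplasmic RNA of neurons and tumour cells that is not on the list, was 175, 138, 81.2 and 572 (2.82, SE 0.87). PVT1, a neighbour of MYC, was 9.62 and 28.7 (1.58, with an SE of 6.07), and KCNQ1OT1, an imprinted antisense RNA, 0.327 and 1.02 (1.64) with no implied error. KCNQ1OT1, counted among the 4 higher, was 1 of 2 members that passed the FPKM minimum at 72 h alone. Such members had to lie above their 24 h level. Other members stayed within 2-fold: NORAD was 70.1 and 89.5 (0.35), TUG1 46.9 and 51.3 (0.13), and JPX 33.4 and 35.4 (0.08).

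Host genes of small nucleolar RNAs, whose introns hold the guide RNAs of ribosomal RNA modification, were 10 of 19 higher and none lower. All 19 lay above the median of all genes, and the list median was 1.14 (1.02 above it). SNHG1 was 254 in DMSO, 245 at 3 h, 242 at 24 h and 1754 at 72 h (2.86, SE 0.35). GAS5 was 388, 351, 358 and 1441 (2.01, SE 0.33). TAF1D, a host that also encodes a subunit of the RNA polymerase I factor, was 112 at 24 h and 478 at 72 h (2.09, SE 0.45), and SNHG12 44.4 and 165 (1.89, SE 0.40). At the lower end stood SNHG8 with 112 and 128 (0.20), SNHG16 with 98.9 and 131 (0.41) and RACK1, a ribosomal protein with snoRNA introns, with 1945 and 2627 (0.43, SE 0.33). SNHG25, which was not on the list, was listed at 0 in DMSO and at 3 h, stood at 0.49 at 24 h and at 2911 at 72 h, and the authors' tables give no test statistic for it at both times. Ribosome assembly factors had a median of 0.08, with 1 of 38 higher (the snoRNP pseudouridine synthase DKC1, 106 and 229, 1.11) and 1 lower (RRS1, 20.7 and 10.1, -1.03).

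Genes of nuclear RNA processing, a list added after values were seen, were 6 of 23 higher, none lower, with a median of 0.63 (0.50 above all genes). PCF11, a transcription termination factor, was 21.3 and 91.4 (2.10, SE 0.45), CCNL1, a cyclin of splicing kinases, 52.9 and 193 (1.87, SE 0.40), and CLK1, a kinase of SR proteins, 22.7 and 79.5 (1.81, SE 0.43). SRSF1, the archetypal SR protein, was 457 in DMSO, 462 at 3 h, 278 at 24 h and 736 at 72 h (1.40, SE 0.30). HNRNPU, which binds nuclear RNA and chromatin, went the same way with 429, 417, 332 and 875 (1.40, SE 0.40). These transcripts were thus lower at 24 h than in DMSO and higher than in DMSO at 72 h. Of the full lists, 2 of 20 SR protein genes (10%) and 2 of 21 hnRNP genes (9.52%) were higher, near the 8.1% of all genes. None was lower, against 6.86% of all genes. The hnRNP median of 0.23 turns to -0.13 when nuclear FPKM sums are made equal. BRD2, a BET protein that binds acetylated histones, was 251 and 906 (1.85, SE 0.35), beside its relative BRD3 at 14.9 and 15.3 (0.03).

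Clustered histone genes had a median of 3.37 over the members that passed the FPKM minimum, a value that the minimum itself raises. Their mRNAs normally end in a stem-loop without a poly(A) tail, so poly(A) capture sees only the part that carries a tail. Of 32 genes, 13 were under FPKM 1 at both times and 3 were at FPKM 1 or more at a single time and listed at 0 at the other; of the other 16, 12 were higher and none lower, but 9 had passed the minimum through their 72 h value alone and so had to lie above their 24 h level. Without a minimum the list median was 2.26. HIST1H1C, a linker histone, was 5.64 in DMSO, 5.16 at 3 h, 6.47 at 24 h and 71.0 at 72 h (3.46, SE 0.56). HIST1H2BD was 1.13 at 24 h and 11.7 at 72 h (3.36, SE 1.22), and HIST2H2BE 0.148 and 18.5 without an implied error. HIST2H2AA3, which was named by size of change and is not on the list, was 0.439 and 33.7 (6.26, SE 1.61); a near-identical copy, HIST2H2AA4, makes its reads uncertain. With 1 added to each value the median of the clustered histone list was 1.87. Among polyadenylated histone and chromatin protein genes, a list also added after values were seen, 3 of 16 were higher (18.8%, against 8.1% of all genes). They were H1F0, the linker histone of resting cells, 33.0 and 150 (2.19, SE 0.29), HMGB2 91.1 and 283 (1.64), and H2AFX 31.1 and 85.1 (1.45).

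**Figure D4:**
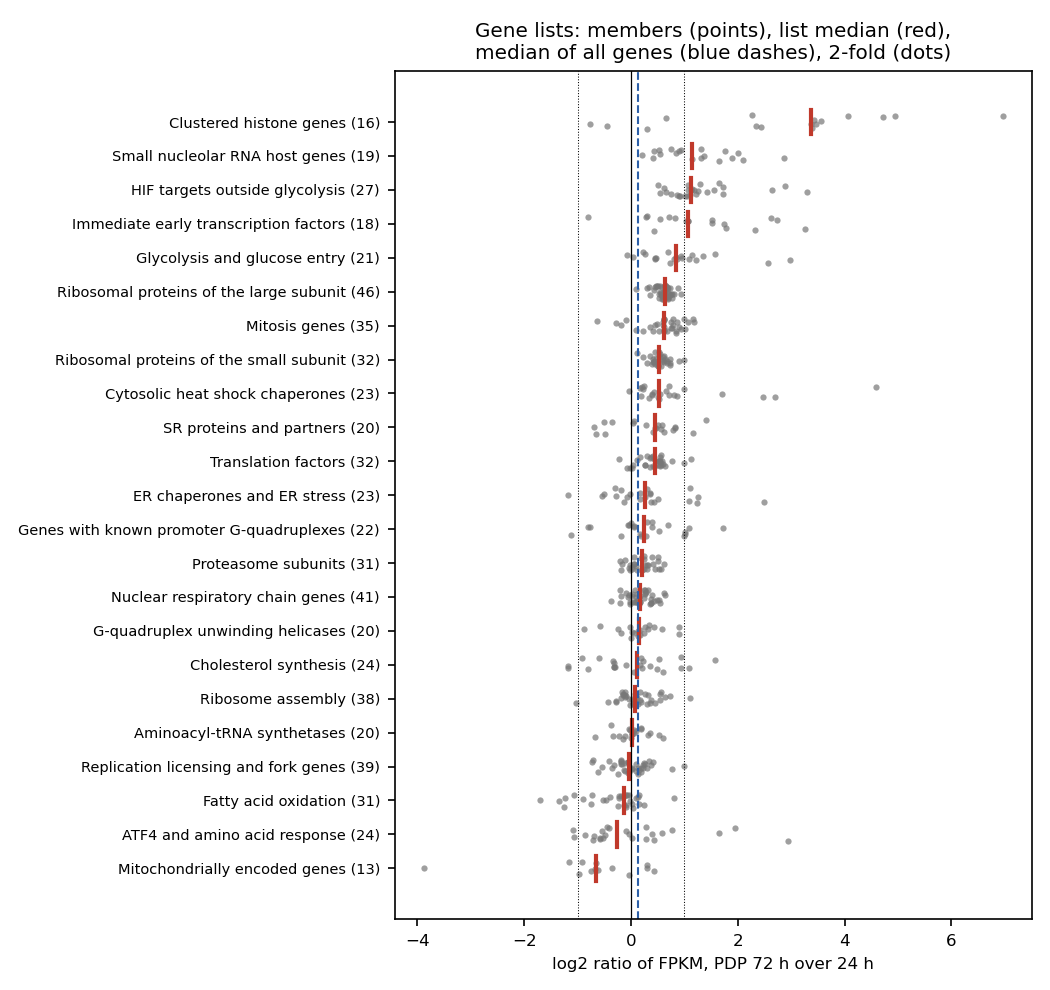
Log2 ratio of FPKM at 72 h over 24 h of PDP for the members (grey points, 1 pooled ratio per gene) of 23 gene lists, with the number of members in brackets, the list median in red, the median of all genes as a blue dashed line and 2-fold as dotted lines. Clustered histone genes, small nucleolar RNA host genes and HIF targets have the highest medians of the members that passed the FPKM minimum (3.37, 1.14 and 1.12), and mitochondrially encoded genes the lowest (-0.65).

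Genes of mitosis were 4 of 35 higher (11.4%, against 8.1% of all genes) and none lower (against 6.86%). Of the 35, 30 lay above the median of all genes (list median 0.63, 0.50 above it). PLK1, a mitotic kinase, was 87.5 in DMSO, 86.5 at 3 h, 65.8 at 24 h and 149 at 72 h (1.18, SE 0.34), and CDK1 145, 131, 112 and 251 (1.16, SE 0.30). TOP2A, which untangles chromosomes, was 90.8 and 190 (1.07, SE 0.37). CCNB1, the partner of CDK1, was 106 and 99.9 (-0.09), and CENPF 38.6 and 24.8 (-0.64). None of 39 replication genes passed 2-fold (median -0.03, -0.15 relative to all genes). RRM2, the regulated subunit of ribonucleotide reductase, was 173, 171, 128 and 329 (1.36, SE 0.33), whereas UMPS, of pyrimidine synthesis, was 65.1, 63.2, 32.4 and 13.8 (-1.23, SE 0.68).

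GADD45B and GADD45A, stress-response genes that slow the cell cycle, were 16.1 and 102 (2.66, SE 0.46) and 31.1 and 78.8 (1.34, SE 0.32). The CDK inhibitor CDKN1A was 13.4 and 18.3 (0.45). Of the BCL2 family, 3 of 16 were higher (18.8%, against 8.1% of all genes), of which BNIP3 and BNIP3L are also HIF targets. The 1 lower member (6.25%, against 6.86%) was the proapoptotic BIK at 1.40 and 0.459 (-1.61, SE 1.23). BIK passed the FPKM minimum at 24 h alone and so had to lie below its 24 h level.

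Ribosomal protein genes showed a narrow, common ratio below 2-fold. The 46 genes of the large subunit ran from 0.10 to 0.93 with a median of 0.63, and the 32 of the small subunit had a median of 0.53. Relative to all genes these medians are 0.51 and 0.40, and 45 of 46 and 31 of 32 lay above the median of all genes. RPL26 was 3301 and 6310 (0.93, SE 0.27). Translation factors had a median of 0.44 with 1 of 32 higher, EIF4A2 (342 and 746, 1.12, SE 0.39). Proteasome subunits (31 genes), nuclear genes of the respiratory chain (41 genes) and lysosome genes (29 genes) had no member past 2-fold, with medians of 0.21, 0.17 and 0.28.

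Transcripts of the mitochondrial genome did not move together. MT-ND6, a complex I subunit and the sole mRNA of the light strand, had the largest decrease of all named genes: FPKM 672 in DMSO, 768 at 3 h, 282 at 24 h and 19.1 at 72 h (-3.88, SE 0.36). As for the histone genes, poly(A) capture sees only the part of a transcript pool that carries a tail. Whether that part of MT-ND6 differed between 24 h and 72 h was not tested. Its ratio therefore describes captured RNA and may differ from that of all MT-ND6 RNA. On the heavy strand, MT-ATP8 was 28842 and 12958 (-1.15, SE 1.28), MT-ATP6 3546 and 1800 (-0.98, SE 0.49) and MT-CO3 4774 and 2525 (-0.92, SE 0.39). These are neighbouring reading frames, and MT-ATP8 overlaps MT-ATP6, so reads shared by them are uncertain. MT-ND3, MT-CO2, MT-ND1 and MT-ND2 had ratios of -0.75, -0.67, -0.65 and -0.61. MT-CYB had -0.36 and MT-CO1 -0.04, while MT-ND5, MT-ND4L and MT-ND4 had 0.30, 0.31 and 0.44. MT-ND4 itself was 5437 in DMSO, 4980 at 3 h, 4688 at 24 h and 6340 at 72 h. The 13 transcripts took 18.5% of the FPKM sum with nuclear protein-coding genes in DMSO, 17.2% at 3 h, 14.1% at 24 h and 8.41% at 72 h; without MT-ATP8 the shares were 11.3%, 11.0%, 9.48% and 6.63%. Nuclear factors that copy and express mitochondrial DNA had a median of 0.19 and no member past 2-fold among 19.

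**Figure D5:**
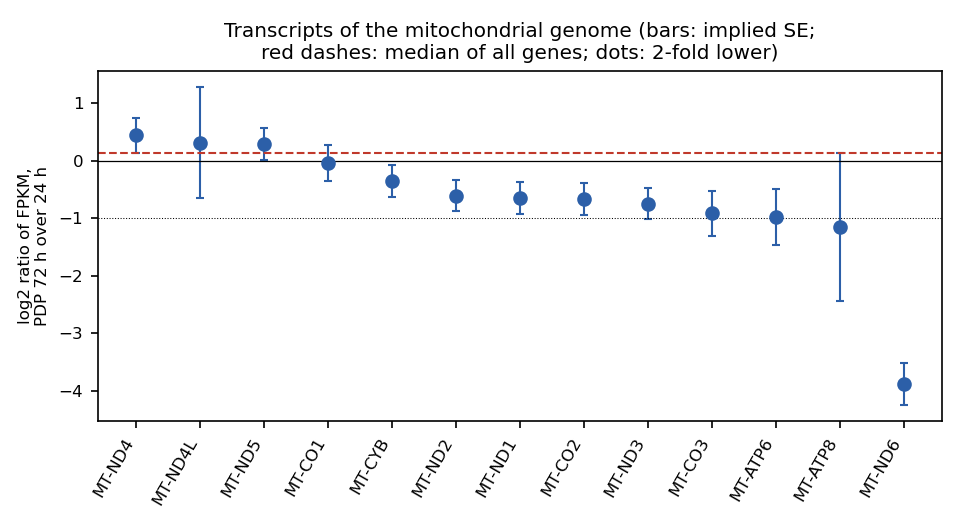
Log2 ratio of FPKM at 72 h over 24 h of PDP for the 13 protein-coding transcripts of the mitochondrial genome, with bars of 1 implied standard error to either side, the median of all genes as red dashes and 2-fold lower as dots. MT-ND6 lies at -3.88, and the other transcripts run from -1.15 (MT-ATP8) to 0.44 (MT-ND4).

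Nuclear genes with the largest decreases did not come from a single list. FADD, the adaptor that links death receptors to caspases, was 16.2 in DMSO, 15.9 at 3 h, 11.6 at 24 h and 2.32 at 72 h (-2.32, SE 0.38). PSKH1, a serine kinase, was 13, 12.4, 10.4 and 1.91 (-2.44, SE 0.54), and RNF146, a ubiquitin ligase for ADP-ribosylated proteins, 17.5, 17.5, 16.9 and 4.52 (-1.91, SE 0.49). These 3 were close to DMSO at 3 h and had the larger step after 24 h. NCOA5, a nuclear receptor coactivator, was 34.6, 35.4, 8.48 and 2.39 (-1.83, SE 0.38), with a drop at both steps. PARS2, the mitochondrial prolyl-tRNA synthetase, was 8.61, 7.42, 10.9 and 2.59 (-2.07, SE 0.38); of the 17 mitochondrial synthetases it was the only one past 2-fold. AMOT, a scaffold of the Hippo pathway, was 208 at 24 h and 70.0 at 72 h (-1.57, SE 0.56), and IRS4, an insulin receptor substrate, 282 and 134 (-1.07, SE 0.37).

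Some decreases followed a peak at 24 h. ANKRD10 was 36.4 in DMSO, 37.5 at 3 h, 205 at 24 h and 44.2 at 72 h (-2.21, SE 0.42). IMPA2, an inositol monophosphatase, was 7.34, 8.01, 14.3 and 2.97 (-2.26, SE 0.59), and so ended below DMSO. The ribosomal protein pseudogenes RPL3P4 and RPL13AP25 were 21.7, 49.7, 101 and 27.2, and 7.08, 14.2, 27.2 and 6.05. Both went back to near their DMSO value.

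Fatty acid oxidation, a list added after values were seen, was 5 of 31 lower (16.1%, against 6.86% of all genes) and none higher. Of the 31, 5 lay above the median of all genes (list median -0.14, -0.26 relative to all genes). EHHADH, of peroxisomal oxidation, was 4.25 in DMSO, 4.75 at 3 h, 11.4 at 24 h and 3.48 at 72 h (-1.71, SE 0.57). HADH was 50.8 and 20.1 (-1.34, SE 0.33) and CPT2, which reforms acyl-CoA inside mitochondria, 15.0 and 6.29 (-1.25, SE 0.42). ACADVL, which starts the oxidation of long chains, had the highest ratio of the list, at 118 and 206 (0.80, SE 0.49). Cholesterol synthesis held members on both sides: MSMO1 was 48.8 and 146 (1.58, SE 0.32) and HMGCS1 78.8 and 168 (1.10, SE 0.35), beside LSS at 35.6 and 15.7 (-1.18, SE 0.41).

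Zinc finger genes with a ZNF symbol were 8 of 388 higher and 44 lower (2.06% and 11.3%), with a median of -0.17 (-0.30 relative to all genes). On chromosome 19, where many lie in clusters, 3 of 169 were higher and 25 lower, and elsewhere 5 of 219 and 19. Many are of low abundance: at FPKM 1 to 5, 35 of 172 ZNF genes were lower and none higher, against 348 and 174 of 2091 other protein-coding genes. A lower gene with FPKM under 2 at 24 h passed the minimum at 24 h alone, which fixed its direction. How many of these ZNF genes that covers was not counted. At FPKM of 10 or more, 1 of 113 was lower and 6 were higher. Solute carriers were 7 of 223 higher and 20 lower (3.14% and 8.97%, against 8.1% and 6.86% of all genes).

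None of 20 proteins known to unwind or bind G-quadruplexes passed 2-fold (median 0.15, 0.03 above all genes); the lowest was the RecQ helicase BLM (19.9 and 10.9, -0.87, SE 0.42) and among the highest was CNBP (286 and 530, 0.89, SE 0.28). Of 22 genes with a known G-quadruplex in the promoter, 4 (18.2%, against 8.1% of all genes) were higher (VEGFA, BCL2, PDGFA and MYB) and 1 (4.55%, against 6.86%) lower (RET, 2.52 and 1.16, -1.12, SE 0.64).

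Other named transcripts past 2-fold were SAT1, of polyamine breakdown, at 43.2 in DMSO, 132 at 24 h and 813 at 72 h (2.62, SE 0.30), the metallothionein MT1X at 55.3 and 292 (2.40, SE 0.38), and the ferritin light chain FTL at 470 and 1073 (1.19, SE 0.27). Of 22 NRF2 and antioxidant genes FTL alone was higher; HMOX1 was 19.5 and 33.0 (0.76). Interferon-stimulated genes were 2 of 20 higher and 2 lower, all 4 under FPKM 10. Each share was 10%, near the 8.1% and 6.86% of all genes. Of the 20, 1 passed the FPKM minimum at 72 h alone and 1 at 24 h alone, which fixed their direction.

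Markers of the line were present at both times: 18 of 20 genes typical of the HEK lineage had FPKM of at least 1, with a sum of 678 at 24 h and 1062 at 72 h, led by VIM (254 and 412), and DLK1 at 0. Blood and immune markers reached FPKM 1 in 3 of 10 (sum 6.73 and 10.2, HBB at 0), fibroblast and endothelial markers in 3 of 10 (sum 26.6 and 28.2, of which COL1A1 22 and 23.8, PECAM1 at 0) and liver markers in 0 of 5 (SERPINA1 at 0). In these bulk samples a change in the share of cells in a given state cannot be told apart from a change in RNA per cell.

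Among the 175 genes listed at 0 at one time, 43 had symbols of small RNAs, which poly(A) capture and a length correction measure poorly. The pseudogene RPL41P5 went from 4814 at 24 h to a listing at 0 at 72 h, and was also listed at 0 in DMSO and at 3 h.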

How the data were processed

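Gene members, lists and settings were chosen with earlier results of these data known. RNA libraries were made from poly(A) RNA with a stranded kit, per the labels' protocols. Per the submitters' processing notes, the tools were HISAT2 2.0.5, Cufflinks 2.2.1, Trim Galore 0.4.4, SAMtools 1.3.1, Bowtie2 2.2.9, HOMER 4.9.1 and Picard on GRCh38.p7; their settings are not given in the sources used here. The authors' deposited values are FPKM, 1 per gene and condition in 3 tables, with the columns of a Cuffdiff-type test per the file headers. The implied standard error is the log2 fold change over the authors' test statistic, a deposited score. Each p-value or q-value that the authors deposited was left unused. Peaks (51446) were used by position alone, without the score that was deposited with them.

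The 3 tables hold the same control up to a factor, so each was divided by the median ratio of its control to that of the 3 h table over genes with control FPKM above 1: 1.04 for the 24 h table (13535 genes, SD 0.000843 on the log2 scale) and 0.968 for the 72 h table (13368 genes, SD 0.000854). Where the ratio's zero lies therefore rests on the authors' scaling of each time against the control. The computation was tested on simulated data. Of the gene IDs, 56980 matched a symbol table, and 28 symbols that had become dates were restored by ID. Genes named were the 12 largest increases and 12 largest decreases with FPKM of at least 10 and a ratio of at least 2 implied standard errors, the 8 largest in each direction at FPKM of at least 200, in each of 52 lists the 4 members of largest ratio and 2 of highest FPKM, and every mitochondrially encoded gene. A further 5 lists, and list members outside this rule, were chosen after values were seen. Python 3.11.15, pandas 2.3.3 and NumPy 2.4.6 were used. Some members and lists are not reported here.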

Additional observations from a re-analysis of the deposited data

How the results depend on the processing

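No paired analysis was possible because the tables hold values pooled over replicates, and for the same reason no replicate could be left out. The counts of higher and lower genes (1195 and 1012) were 599 and 345 at a minimum FPKM of 5, 2525 and 2348 without a minimum, 2875 and 2104 at a fold of 1.5, 316 and 179 at a fold of 4, 285 and 309 where 2 implied standard errors were also asked for, and 591 and 626 over protein-coding genes alone, a setting chosen after seeing the data. With 1 added to each FPKM they were 798 and 478, and with nuclear FPKM sums made equal 609 and 1889.

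Equal nuclear sums also moved list medians: heat shock chaperones to 0.16, CCT subunits to 0.077, NRF2 genes to -0.19, ribosomal proteins of the large and small subunit to 0.27 and 0.17, mitochondrially encoded genes to -1.01, nuclear respiratory chain to -0.19, proteasome to -0.14, deoxynucleotide supply to -0.19, SR proteins to 0.10, hnRNP genes to -0.13, ID and HES genes to 0.059, and linker histones to 0.13. Under it 28 of 56 list medians changed sign, but 1 of 56 did so relative to the median of all genes. Of the 309 named genes 125 were past 2-fold; none of these changed sign under the other scalings or the pseudocount, and 31 of them were under 2-fold with equal sums. At a minimum FPKM of 5 the median of immediate early genes was 1.52 and that of metallothioneins 1.22, and with 1 added that of clustered histones was 1.87. In the 250 bases before the start alone, ACGTG or GCGTG was in 54.4% of promoters of higher genes. With peaks within 1 kb of a locus counted, the shares under 10 kb were 8.71% (higher) and 13.3% (neither), and 54.3% (neither) at 10 to 100 kb. Which scaling, minimum or window comes closest to the true levels was not tested. Unknown depth and pooled values limit what can be said of genes under FPKM 5, which make up much of both counts.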
